A study of Homo sapiens with 17 samples.

Results

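Expression of 49 genes of the cornified envelope and of terminal squamous differentiation was followed across 17 RNA-seq libraries of 2 squamous cancer cell lines. The members were the rows of the deposited tables whose gene symbol was on a list of these genes. The matching used no measured value, but the list was drawn up with earlier results of these data known. All 49 were found, of 57820 genes in each table. KYSE140, an esophageal squamous cell carcinoma line, gave 13 libraries, and SKMES1, a lung squamous cell carcinoma line, gave 4.

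The study asked how the noncoding enhancer e1 controls SOX2, the gene of a transcription factor, and what SOX2 loss does to squamous cancer cells. In KYSE140 cells that stably carried an inactive Cas9 with a repressor (CRISPR interference, CRISPRi), the guides were sg-NC#1 and sg-NC#2, which have no recognition site in the genome, or sg-e1#1 and sg-e1#2. In KYSE140 cells with active Cas9, the guides were sg-AAVS1 and sg-Chr2.2, which cut outside SOX2, or sg-SOX2#2, sg-SOX2#3 and sg-SOX2#4. KYSE140 cells also received either DMSO or, during 6 h, 0.5 µM of ARV-771, a compound that causes degradation of BET bromodomain proteins (cultures A and B of each). In SKMES1 cells with dCas9-VP64 and a further p65 and HSF1 activator (CRISPR activation, CRISPRa), the guides were sg-NC#1 and sg-NC#2 or sg-e1#1 and sg-e1#3. All guide groups were infected, drug-selected populations rather than clones, so unedited and edited cells were read together. Fewer cells that express a gene and less RNA of it per cell cannot be told apart in such bulk samples.

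In stratified squamous epithelium, cells that leave the basal layer stop dividing and build a cornified envelope under the plasma membrane. Transglutaminases crosslink precursors such as involucrin, loricrin and the small proline-rich proteins onto a scaffold of envoplakin and periplakin. Kallikrein proteases and their inhibitors control the shedding of the dead cells, S100 proteins bind calcium and act in epithelial defence, and lipids attached to the envelope seal it. SOX2 is expressed in the basal cells of the esophagus and is often amplified in squamous cancers.

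The members were not spread evenly over the genome. In GRCh37 coordinates, 20 of them lay on chromosome 1 between 150480538 and 153589462, a region that holds the epidermal differentiation complex with its envelope precursor and S100 genes. The 6 kallikrein members lay within 0.085 Mb on chromosome 19, between 51446559 and 51531295. Read sharing was a limit for some of them. Of the transcript stretches of 75 bases, 25.2% in SPRR2A, 12% in SPRR2D and 16% in SPRR2E also occurred in other SPRR2 genes, and 42.2% in KLK8 occurred in the overlapping KLK9 or a further annotated gene. In TGM3 the share was 96.5%, with an overlapping annotated gene that has no symbol. Levels of these 5 genes are therefore uncertain.

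The sequences before the start sites of 5 members with raised RNA are shown as examples that hold the binding letters of AP-1, a transcription factor family long known for its part in involucrin expression. They were chosen after their values and matches were seen, so their matches are no result. RefSeq start sites on GRCh38.p14 were available for 37 members, LOR under its newer symbol LORICRIN, and the 250 bases before each start were searched on both strands. Capitals mark each match to the AP-1 letters TGANTCA, and CNFN and S100A9, which rose as well and hold none in this window, are shown beside them.
SPRR1A (chr1:152983831-152984080, plus strand): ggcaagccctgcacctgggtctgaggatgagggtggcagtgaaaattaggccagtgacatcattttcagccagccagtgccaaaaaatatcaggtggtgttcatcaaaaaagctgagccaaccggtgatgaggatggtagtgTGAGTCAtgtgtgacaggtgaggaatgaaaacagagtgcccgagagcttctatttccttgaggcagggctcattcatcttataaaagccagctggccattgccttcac
SPRR1B (chr1:153030953-153031202, plus strand): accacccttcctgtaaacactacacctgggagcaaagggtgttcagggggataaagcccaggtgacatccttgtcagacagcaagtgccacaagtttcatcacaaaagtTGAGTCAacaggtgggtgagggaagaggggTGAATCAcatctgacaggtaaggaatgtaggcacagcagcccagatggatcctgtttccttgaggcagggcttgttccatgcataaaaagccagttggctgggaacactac
SPRR3 (chr1:153001499-153001748, plus strand): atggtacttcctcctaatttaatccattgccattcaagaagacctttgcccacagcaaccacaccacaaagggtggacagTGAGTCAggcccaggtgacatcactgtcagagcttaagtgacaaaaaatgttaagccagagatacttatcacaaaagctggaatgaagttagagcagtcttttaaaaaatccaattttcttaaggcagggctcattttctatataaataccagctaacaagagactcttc
SPRR2A (chr1:153057513-153057762, minus strand): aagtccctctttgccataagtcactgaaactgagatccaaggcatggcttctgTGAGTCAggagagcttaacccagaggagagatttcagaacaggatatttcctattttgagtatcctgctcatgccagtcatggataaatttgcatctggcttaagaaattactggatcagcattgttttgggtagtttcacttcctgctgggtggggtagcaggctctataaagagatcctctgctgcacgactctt
IVL (chr1:152908296-152908545, plus strand): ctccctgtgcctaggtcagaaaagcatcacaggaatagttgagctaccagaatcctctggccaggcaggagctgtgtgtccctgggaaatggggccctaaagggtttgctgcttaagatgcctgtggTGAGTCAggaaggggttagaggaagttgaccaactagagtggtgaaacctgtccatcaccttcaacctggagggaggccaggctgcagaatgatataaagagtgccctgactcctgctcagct
CNFN (chr19:42390298-42390547, minus strand): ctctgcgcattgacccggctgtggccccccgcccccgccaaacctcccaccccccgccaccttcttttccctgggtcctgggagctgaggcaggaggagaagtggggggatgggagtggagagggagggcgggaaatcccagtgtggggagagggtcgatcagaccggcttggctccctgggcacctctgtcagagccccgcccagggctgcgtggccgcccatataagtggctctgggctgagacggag
S100A9 (chr1:153357604-153357853, plus strand): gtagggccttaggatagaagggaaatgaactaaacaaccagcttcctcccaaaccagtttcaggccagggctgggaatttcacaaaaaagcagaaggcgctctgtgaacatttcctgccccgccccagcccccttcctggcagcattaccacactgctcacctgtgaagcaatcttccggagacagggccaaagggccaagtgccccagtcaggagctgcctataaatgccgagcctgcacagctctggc
The match began 123 bases before the start of IVL, 108 before SPRR1A, 170 before SPRR3 and 197 before SPRR2A. SPRR1B held a pair of them, 141 and 111 bases before its start. The letters TGANTCA stood in 33.3% of the 48 windows of the members (16 of 37 members), against 6.6% of all 35116 windows. Members with these letters included FLG, which fell in the knockout, and S100A2, which was not called there. They also included LOR and FLG2, which had too few counts there to be tested. The letters TATAAA of a TATA box stood in 33.3% against 10.7%. The core SOX letters ACAANG stood in 35.4% against 30.9%, and the grainyhead letters AACCNGTT in 4.2% against 1.5%. A match is a run of letters and was not tested for binding.

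Total expected counts ranged from 7260730 to 15781463 per library, so that a gene with 3 counts equals 0.19 to 0.413 CPM, a count relative to all counts of its library. No replicate pair agreed within sampling noise. Replicates were different guides or cultures A and B, and p-values measure the spread between these libraries. The squamous identity of the lines was checked with 11 markers, among them KRT5, KRT14 and TP63. All 11 stood over 1 TPM (a share of transcripts corrected for length) in every KYSE140 library, but only 6 to 8 of them in the SKMES1 libraries. KRT5, the basal squamous keratin, was at 0.05 to 1.26 TPM in SKMES1, and KRT14, its partner, was at 0 to 0.31 TPM there except in the sg-NC#2 library, with 118 TPM. Because S100A8, S100A9 and LCN2 are also genes of neutrophils, 10 neutrophil and leukocyte markers were read as well, and these summed to 0.06 to 1.7 TPM in KYSE140 and 4.12 to 7.1 TPM in SKMES1. Fibroblast markers summed to 11.98 to 44.17 TPM and glandular markers to at most 4.33 TPM in KYSE140. In SKMES1 they summed to 17.26 to 25.57 TPM and 14.09 to 36.11 TPM.

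SOX2 RNA changed as the labels say. It stood at 379 and 364.7 TPM with CRISPRi control guides and at 119.6 and 128 TPM with e1 guides (log2 fold change -1.57 ± 0.05, SE, adjusted p = 2.6e-12 by the quasi-likelihood test of edgeR with Benjamini-Hochberg adjustment, the test used throughout). It stood at 397 and 428 TPM with Cas9 control guides and was 103, 125 and 221 TPM in the libraries of SOX2 guides 2, 3 and 4 (log2 -1.28 ± 0.21, adjusted p = 2.4e-04). The RNA of cut alleles is still counted, so this level does not measure SOX2 protein.

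Loss of SOX2 by Cas9 was accompanied by high RNA of most of the cornification genes. The members without S100A2, which was abundant in every library, summed to 621 and 600.3 TPM in the Cas9 control libraries and to 35600.4, 29333 and 19119 TPM with SOX2 guides 2, 3 and 4. With S100A2 the members made up 4.17%, 3.55% and 2.39% of all transcripts in the SOX2 guide libraries, against 0.644% and 0.505% in the controls. A gene was called risen or fallen where its adjusted p was below 0.05 and it changed by more than a factor of 1.5. By this rule 39 members were risen and 1 was fallen, where 16.3% of all 13978 tested genes were risen and 13.5% fallen (29.7% called). The filter on low counts was passed by 41 of the 49 members. Of these, 20 stood over its cutoff of 1.08 CPM only in SOX2 guide libraries and so had to differ. Among the 21 members over the cutoff in both groups, 19 were risen and 1 was fallen, with a median log2 fold change of 4.67, where 26.8% of the 13192 genes of that kind were called and the median was -0.02. The 11 squamous markers summed to 8293.19 to 8339.79 TPM in the controls and 26516.93 to 31628.1 TPM with SOX2 guides. Of these markers 8 were risen and 2 were fallen, so the sum does not stand for each of them. The fibroblast markers summed to 11.98 to 22.19 TPM and 39.54 to 44.17 TPM, with 1 marker over 1 TPM in the SOX2 guide libraries, and their part in the result was not tested.

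**Figure D1:**
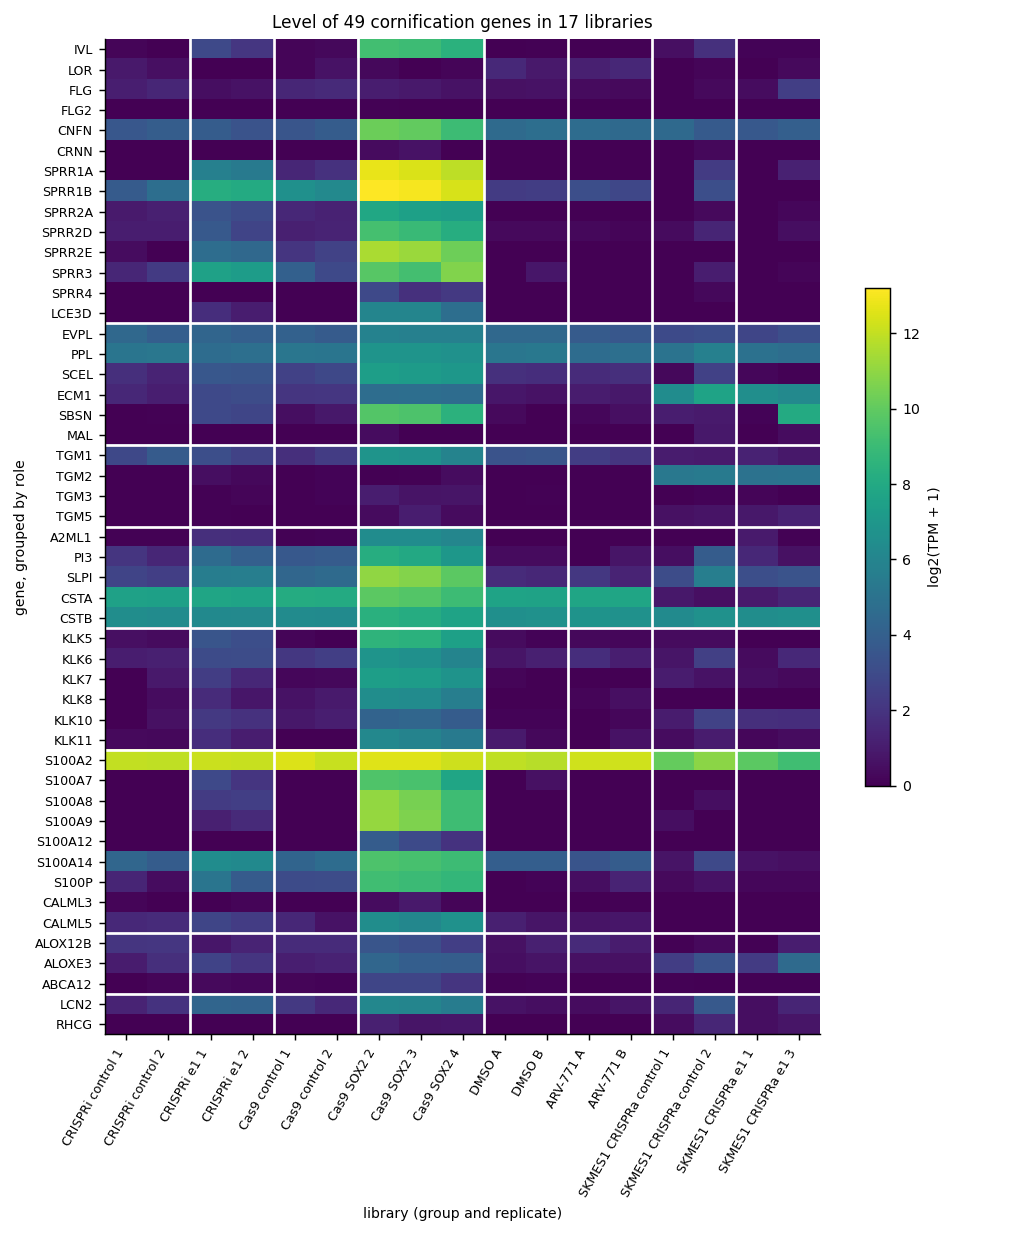
Level of each of the 49 members (rows, grouped by role, white lines between roles) in each of the 17 libraries (columns, white lines between groups) as log2(TPM + 1), from dark (0) to yellow (highest). The 3 SOX2 guide libraries are bright in most rows, the e1 repression libraries are brighter than their controls in the SPRR, kallikrein and S100A14 rows, and S100A2 is bright in all KYSE140 columns.

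The envelope precursors gave most of the increase, and 10 of the 11 tested were risen, where 16.3% of all genes were. Of these precursors, IVL, SPRR1A, SPRR2A, SPRR2D, SPRR4 and LCE3D stood over the count cutoff only in SOX2 guide libraries and so had to differ. SPRR1B, a small proline-rich crosslinked precursor, was at 97.3 and 74.3 TPM in the controls and reached 9468, 8249 and 5478 TPM with guides 2, 3 and 4 (log2 6.69 ± 0.27, adjusted p = 2.6e-09 by edgeR). SPRR1A, its neighbour, went from 1.70 and 2.70 TPM to 6975, 5597 and 3847 TPM. In both genes guide 4 gave the lowest of the treated values. The groups were far apart in SPRR1B, which was over the cutoff in both of them. SPRR2E had control levels of 3.08 and 5.01 TPM and 2984, 2377 and 1258 TPM with the guides, subject to the shared stretches above. SPRR3, the small proline-rich protein typical of esophagus, was at 15.3 and 6.42 TPM and reached 891, 614 and 1683 TPM, so that here guide 4 gave the highest value. IVL, the gene of involucrin, an early precursor laid down along the membrane, was nearly silent in the controls at 0.15 and 0.20 TPM and stood at 594, 533 and 348 TPM with the guides (a ratio of 3310 on 4 control counts, among the members that passed the filter only through the SOX2 guides). CNFN, which encodes cornifelin, rose from 10.3 and 13.1 TPM to 1201, 1031 and 533 TPM, a fold change of 91.3. LCE3D, a late envelope gene, had no control counts and 64.0, 64.4 and 26.0 TPM with the guides, at least 95.3-fold higher against a floor of 3 counts over the control group. SPRR2A and SPRR2D were risen as well, and SPRR4 had 53 counts with the guides and 0 without.

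Of the further precursors FLG, LOR, FLG2 and CRNN, only FLG passed the count filter, and it did not follow. FLG, the gene of filaggrin, which bundles keratin, was at 1.64 and 1.99 TPM in the controls and 1.10, 0.89 and 0.58 TPM with the guides, and was the only member that fell (log2 -0.84 ± 0.24, adjusted p = 0.0112 by edgeR). This call was lost without the sg-Chr2.2 library (log2 -0.72, adjusted p = 0.106). LOR, the gene of loricrin, the main precursor in epidermis, had 3 counts over the SOX2 guide libraries and 4 over the controls and was not tested. FLG2 had 4 and 2 counts, and CRNN, which encodes cornulin, had 10 counts with the guides and 0 without. These low counts show that not every gene of the list was detectable at this depth.

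The scaffold genes rose by smaller factors from a higher start, and of the crosslinking enzymes TGM1 was the abundant one. EVPL (envoplakin), on which precursors are assembled, rose from 15.96 and 12.88 TPM to 57.1, 53.5 and 52.6 TPM. PPL (periplakin), its partner, rose from 35.0 and 34.3 TPM to 114, 115 and 103 TPM. The 2 scaffold genes thus changed by a similar factor, 3.92 and 3.67, and differed little between guides. TGM1, the membrane-bound transglutaminase of keratinocytes, had control levels of 2.45 and 4.16 TPM and reached 114, 101 and 58.6 TPM (log2 5.08 ± 0.36, adjusted p = 2.9e-07 by edgeR). TGM2, the transglutaminase found in many tissues, had 3 counts over the SOX2 guide libraries and 1 over the controls. TGM3, an epidermal transglutaminase, had 40 counts against 1, a ratio of 24.7 with a counting interval of 4.18 to 998. Its call was lost without the sg-AAVS1 library (log2 3.22, adjusted p = 0.0981), and its transcript is largely shared with another annotated gene. SBSN, the secreted protein suprabasin, rose from 0.39 and 0.78 TPM to 820, 729 and 356 TPM. Like TGM3, SBSN stood over the count cutoff only in SOX2 guide libraries and so had to differ. SCEL (sciellin), an envelope-associated protein, rose from 4.86 and 6.24 TPM to 165.5, 149 and 128 TPM.

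All 6 kallikreins and all 5 protease inhibitors were called risen, but KLK5, KLK7, KLK8, KLK10, KLK11 and A2ML1 stood over the count cutoff only in SOX2 guide libraries and so had to differ. KLK6 and the other 4 inhibitors were over it in both groups. KLK5, which starts the cascade of desquamation proteases, had 0.14 and 0 TPM in the controls, 1 count in all, and 382, 344 and 178 TPM with the guides. KLK7, the chymotrypsin-like protease that KLK5 activates, was at 0.18 and 0.23 TPM and reached 170, 158 and 111 TPM. Both were close to undetectable without SOX2 guides. KLK6 and KLK10 had fold changes of 31.3 and 24.4. KLK8 had 654 counts against 3, a ratio of 134 with a counting interval of 45.8 to 653, subject to its shared stretches. KLK11, another serine protease of the cluster, had no control counts and was at least 268-fold higher with the guides. SLPI, a secreted inhibitor of serine proteases, rose from 19.9 and 22.8 TPM to 2098, 1747 and 941 TPM (log2 6.45 ± 0.39, adjusted p = 6.3e-08 by edgeR). The cysteine protease inhibitor CSTA (cystatin A), itself an envelope component, was already at 274 and 272 TPM in the controls and rose to 927, 812 and 537 TPM, a fold change of 3.22. A2ML1, a broad protease inhibitor of the alpha-2-macroglobulin family, rose from 0.05 and 0.08 TPM to 85.9, 84.7 and 64.9 TPM. CSTB (cystatin B), a cytosolic cysteine protease inhibitor, and PI3 (elafin), an elastase inhibitor that is crosslinked into the envelope, had log2 fold changes of 1.97 ± 0.19 and 4.46 ± 0.42.

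Among S100 genes, the neighbours S100A8 and S100A9, whose products form calprotectin, went from no counts to high levels. S100A8 stood at 2132, 1467 and 544 TPM with guides 2, 3 and 4, at least 2090-fold over the floor. S100A9 stood at 2254, 1591 and 543 TPM, at least 2590-fold over it. Guide 2 gave 3.92 times the level of guide 4 in S100A8 and 4.15 times in S100A9. S100A7 (psoriasin) likewise had no control counts and 763, 681 and 216 TPM with the guides. The summed neutrophil and leukocyte markers were at 0.06 to 1.7 TPM in the SOX2 guide libraries and at 0.91 to 1.27 TPM in their controls. S100A14 rose from 17.9 and 24.7 TPM to 728, 659 and 529 TPM, and S100P from 6.98 and 7.44 TPM to 574, 506.5 and 428 TPM. S100A2, an S100 gene of basal squamous cells, was at 5819 and 4452 TPM in the controls and 6053, 6132 and 4778 TPM with the guides, so the groups overlapped and it was not called (log2 0.32 ± 0.13, adjusted p = 0.0518 by edgeR). S100A12 had 58 counts with the guides and 0 without. CALML5, a calmodulin-like protein of keratinocytes, rose from 1.79 and 0.59 TPM to 88.6, 68.7 and 102 TPM. Of these genes, S100A7, S100A8, S100A9, S100A12 and CALML5 stood over the count cutoff only in SOX2 guide libraries and so had to differ.

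The genes of barrier lipids rose from low levels. ABCA12, the transporter that loads lipid into lamellar granules, was at 0.15 and 0.09 TPM in the controls and 5.89, 5.89 and 3.15 TPM with the guides. It stood over the count cutoff only in SOX2 guide libraries and so had to differ. ALOX12B and ALOXE3, lipoxygenases that act in turn on the same lipids, changed by 8.05-fold and 6.85-fold. LCN2, a secreted lipocalin that binds siderophores, rose from 3.58 and 1.91 TPM to 67.6, 64.6 and 45.0 TPM. RHCG, an ammonium transporter of esophageal epithelium, had 35 counts over the SOX2 guide libraries and 0 over the controls, TGM5 had 19 and 0, CALML3 had 10 and 0, and MAL, a membrane protein of esophageal cells, had 3 and 0. Among the 43 members over 1 TPM in any of the 3 SOX2 guide libraries, guide 4 gave the lowest level in 37 and guide 2 the highest in 35. Guide 4 was also the guide with the most SOX2 RNA left, a level that does not measure SOX2 protein. With 3 libraries this order has no test.

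**Figure D2:**
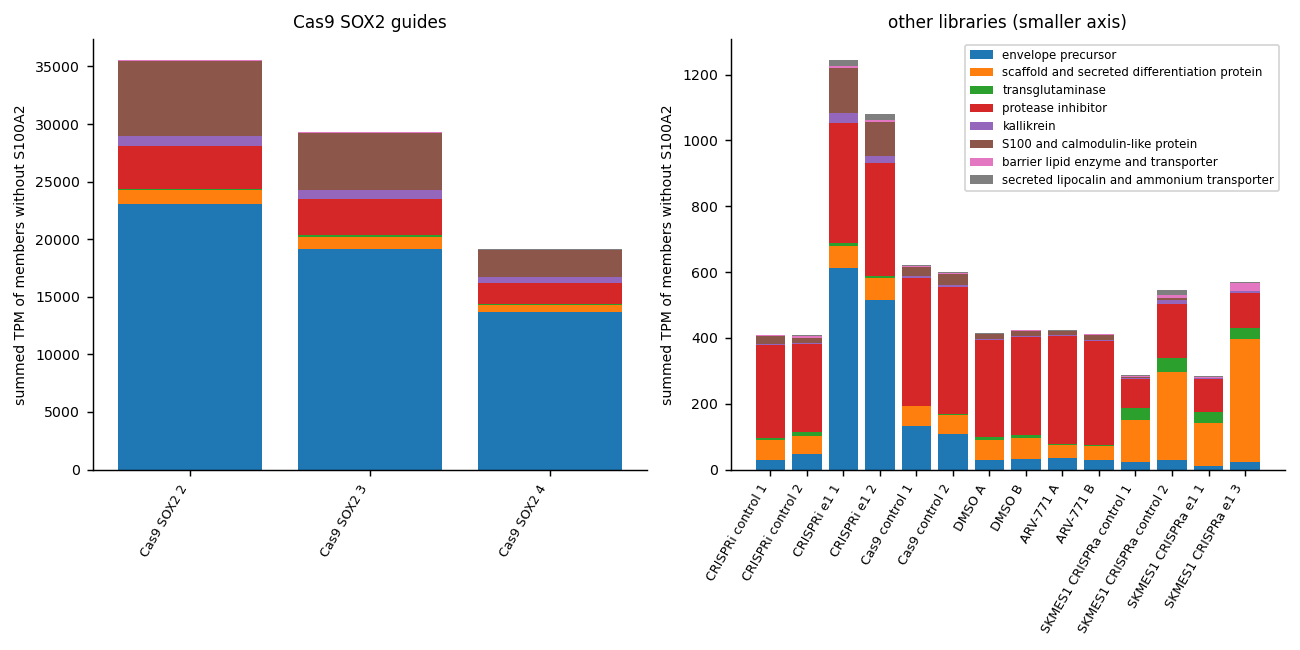
Summed TPM of the members without S100A2, stacked by role, in the 3 SOX2 guide libraries (left) and in the 14 other libraries on a smaller axis (right). Envelope precursors make up most of the SOX2 guide bars, between 13640.3 and 23060.0 TPM, whereas protease inhibitors make up most of the control bars of KYSE140.

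Repression of e1 by CRISPRi, which lowered SOX2 RNA without cutting the gene, was accompanied by a smaller increase of some of the same genes. The members without S100A2 summed to 410.4 and 408 TPM with control guides and to 1246 and 1080.0 TPM with e1 guides. Of the 32 members that passed the filter, 22 were risen and 1 was fallen, where 9.30% of 13792 genes were risen and 10.7% fallen. Again 13 of the 32 stood over the cutoff of 0.956 CPM only in the e1 guide libraries. Among the 18 over the cutoff in both groups 10 were risen and 1 was fallen, with a median log2 fold change of 1.32, where 18.1% of the 13269 genes of that kind were called and the median was -0.00. The summed fibroblast markers also moved, from 15.09 to 17.33 TPM with control guides to 38.08 to 39.2 TPM with e1 guides, with 1 marker over 1 TPM, and their part in the result was not tested.

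By level, SPRR1B and SPRR3 were the highest of the members that rose. SPRR3 stood at 1.71 and 3.70 TPM with control guides and at 191 and 159 TPM with e1 guides (log2 6.05 ± 0.19, adjusted p = 7.9e-13 by edgeR). SPRR1B went from 13.1 and 26.2 TPM to 300.1 and 268 TPM (log2 4.05 ± 0.15, adjusted p = 4.4e-12 by edgeR). SPRR1A had no counts with control guides and 53.8 and 41.3 TPM with e1 guides, at least 101-fold higher against the floor. IVL remained low, at 0.14 and 0 TPM against 6.54 and 3.28 TPM, a ratio of 75.1 with a counting interval of 20.4 to 627 on 2 control counts. SPRR2A, SPRR2D and SPRR2E were risen with the shared stretches as a limit, and LCE3D had 9 counts with e1 guides and 0 without. SPRR1A, IVL, SPRR2A, SPRR2D and SPRR2E stood over the count cutoff only in e1 guide libraries and so had to differ. FLG fell here too, from 1.16 and 1.70 TPM to 0.38 and 0.54 TPM (log2 -1.60 ± 0.24, adjusted p = 4.5e-05 by edgeR). LOR had 11 counts over the control libraries and 0 over the e1 libraries.

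Outside the precursors, SBSN and A2ML1 had larger ratios on lower levels. SBSN went from 0 and 0.07 TPM to 6.43 and 5.86 TPM, a ratio of 132 with a counting interval of 23.3 to 5280 on 1 control count. A2ML1 went from 0.04 and 0.05 TPM to 2.44 and 2.34 TPM, a ratio of 63.6 with a counting interval of 21.4 to 312 on 3 control counts. SLPI, PI3 and the tested kallikreins were called risen as well. SLPI was at 5.63 and 4.49 TPM with control guides and 46.7 and 49.7 TPM with e1 guides, and PI3 was at 3.13 and 1.69 TPM against 23.7 and 15.1 TPM. KLK5 rose from 0.46 and 0.32 TPM to 10.4 and 8.14 TPM, and KLK6, KLK7 and KLK10 were risen as well. S100A14 rose from 19.8 and 13.3 TPM to 84.7 and 77.4 TPM (log2 2.39 ± 0.14, adjusted p = 1.1e-09 by edgeR). Of these genes, SBSN, A2ML1, PI3, KLK5, KLK7 and KLK10 stood over the count cutoff only in e1 guide libraries and so had to differ. SLPI, KLK6 and S100A14 were over it in a control library as well, and their e1 values lay above both control values. S100A8, S100A9 and S100A7 had no counts with control guides and 18, 8 and 17 counts in all with e1 guides, too few to be tested. CALML5 and ALOXE3 were called risen, but CALML5 was lost without either control library or without sg-e1#1 (adjusted p = 0.129 to 0.246) and ALOXE3 without sg-NC#1 or sg-e1#1 (adjusted p = 0.102 and 0.181).

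Of the 18 members over the cutoff in both groups, 7 were not called under e1 repression, among them the scaffold, TGM1 and the cystatins. CNFN was at 11.04 and 13.8 TPM with control guides and 13.4 and 9.52 TPM with e1 guides (log2 -0.10 ± 0.36, adjusted p = 0.850 by edgeR). TGM1 was at 6.32 and 12.95 TPM against 8.0 and 5.05 TPM, again with overlapping groups. CSTA stood at 188 and 178 TPM against 217 and 203 TPM, and CSTB at 87.0 and 81.2 TPM against 75.1 and 73.5 TPM. EVPL was at 21.2 and 14.6 TPM against 18.7 and 15.2 TPM. PPL was lower with e1 guides, at 24.2 and 27.0 TPM against 34.3 and 36.7 TPM, with an adjusted p of 2.0e-05 by edgeR but a fold under 1.5. S100A2 was at 4135 and 4009.95 TPM against 4592 and 4422 TPM and was under the fold threshold as well.

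**Figure D3:**
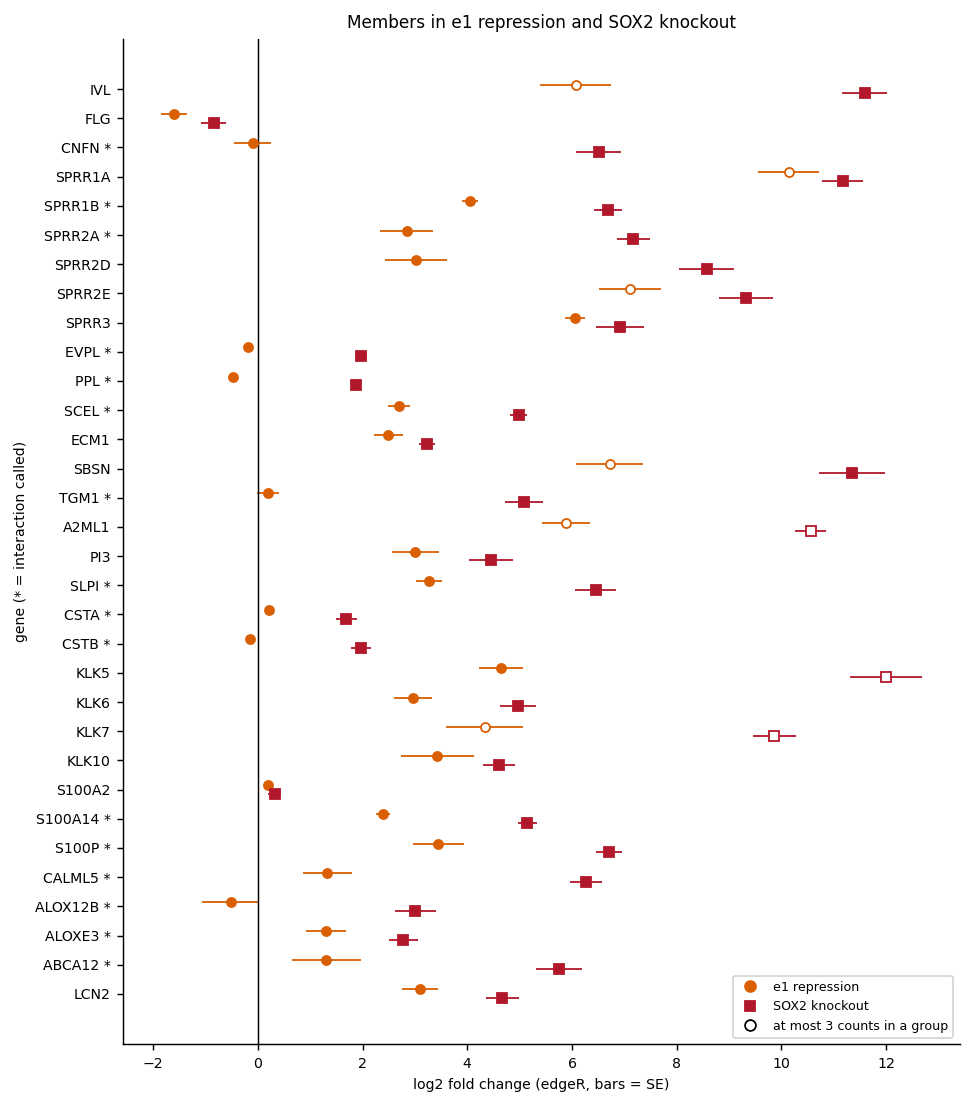
Log2 fold change ± SE (edgeR) of the 32 members tested in both e1 repression (circles) and SOX2 knockout (squares). Open symbols mark a group with at most 3 counts, where the value depends on the prior count, and an asterisk marks a called interaction. CNFN, EVPL, PPL, TGM1, CSTA and CSTB stand near or below 0 in e1 repression and at 1.69 to 6.51 in the knockout, whereas SPRR3 and ECM1 lie close together.

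All 22 members that rose under e1 repression were also risen in the knockout, where they were 56.4% of the 39 risen members, and FLG was fallen in both. Since 39 of the 41 members tested in the knockout were risen, nearly any choice of members would overlap in this way. These comparisons use different control libraries. SOX2 RNA itself did not differ detectably in its response (log2 difference -0.27 ± 0.28, adjusted p = 0.512 by edgeR for the interaction over the 9 libraries). Because RNA of cut alleles is counted, this does not show an equal loss of SOX2 protein. The response of the members was smaller under e1 repression in 16 of the 41 tested and larger in 0, where 8.37% of 14455 genes were called lower and 8.21% higher (16.6% in all). For PPL the difference was -2.33 ± 0.12 on the log2 scale (adjusted p = 3.8e-08), for EVPL -2.13 ± 0.16 (adjusted p = 1.2e-06), for TGM1 -4.87 ± 0.62 (adjusted p = 6.7e-05) and for CNFN -6.60 ± 1.00 (adjusted p = 2.6e-04), all by edgeR. Thus the scaffold, the crosslinking enzyme and cornifelin were higher in the knockout response. S100A14 (-2.74 ± 0.30), CALML5 (-4.93 ± 0.66) and SPRR1B (-2.61 ± 0.48) were called too, although SPRR1B rose in both. Of the 41 members, 20 stood over the count cutoff of the knockout comparison only in SOX2 guide libraries. SPRR2A, CALML5 and ABCA12, of the 16 called, were among these. For SPRR3 the difference was -0.83 ± 1.14 (adjusted p = 0.640 by edgeR) and for ECM1, the extracellular matrix protein mutated in lipoid proteinosis, -0.73 ± 0.30 (adjusted p = 0.0911), neither of which shows that the responses are alike. SPRR4, LCE3D, S100A7, S100A8, S100A9 and S100A12 had a group without counts, and their differences could not be estimated. Without the SOX2 guide 4 library, 25 of 39 tested members were called lower, a count without the share of all genes in that setting beside it.

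The starting levels of the control libraries differed as well. SPRR1B was at 13.1 and 26.2 TPM with the CRISPRi control guides, 97.3 and 74.3 TPM with the Cas9 control guides and 3.91 and 4.23 TPM in DMSO. SLPI was at 5.63 and 4.49, 19.9 and 22.8, and 2.08 and 1.80 TPM in the same order. Of the members, 21 and 22 stood over 1 TPM in the CRISPRi controls, 25 in each Cas9 control and 13 in each DMSO library. These groups were not compared by a test.

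**Figure D4:**
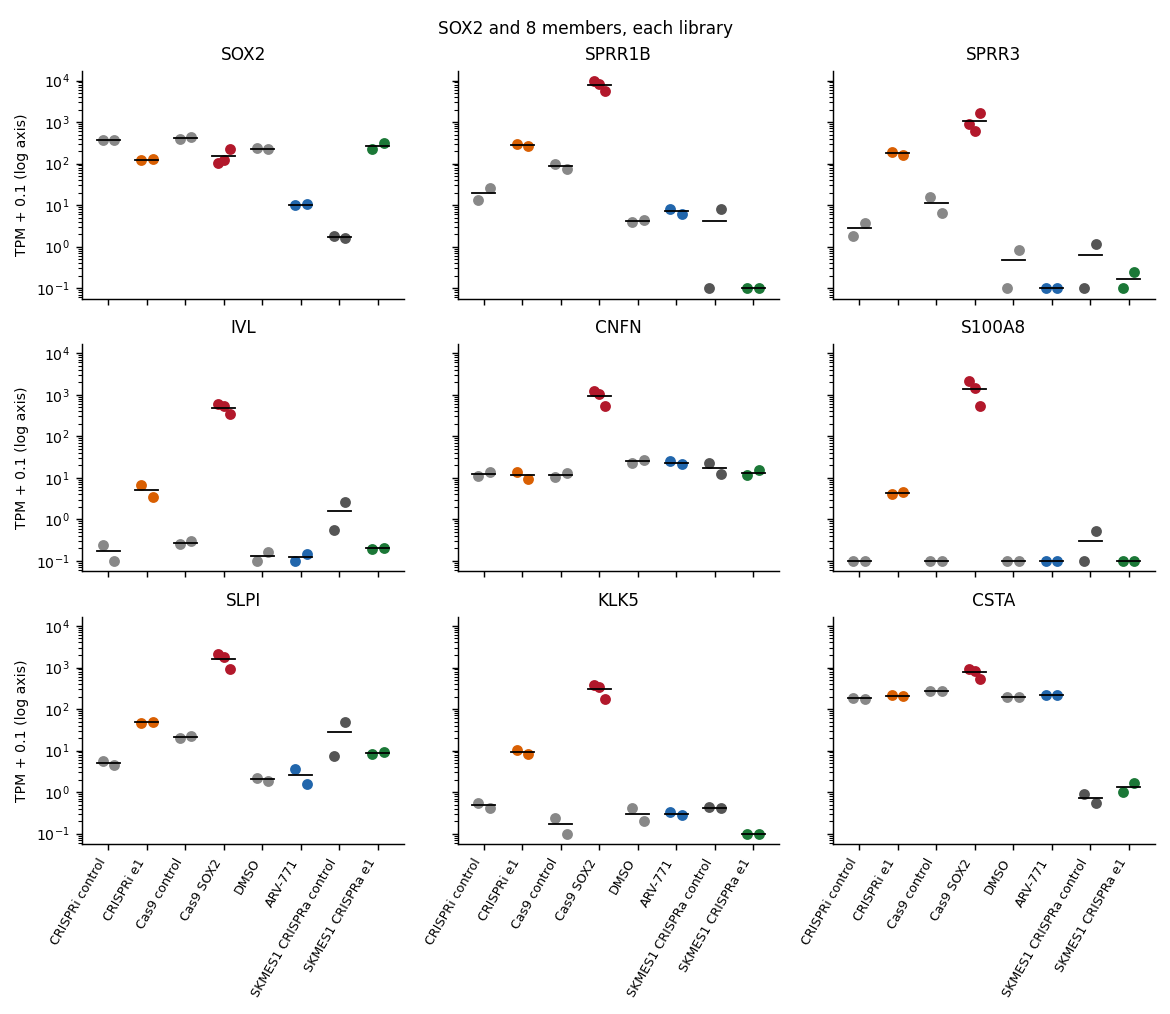
SOX2 and 8 members in every library (points, TPM + 0.1 on a log axis) with the group mean (line). SOX2 is lowest of the KYSE140 groups in ARV-771, near 10 TPM, while the members plotted are highest in the SOX2 guide libraries. CNFN and CSTA are level between CRISPRi control and e1 guides.

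Treatment with ARV-771 for 6 h lowered SOX2 RNA from 236 and 223 TPM to 9.8 and 10.5 TPM (log2 -3.77 ± 0.07, adjusted p = 1.9e-22 by edgeR). In RNA this was more than the SOX2 guides did (log2 difference -2.39 ± 0.31, adjusted p = 6.1e-06 by edgeR for the interaction). RNA of cut alleles is counted in the SOX2 guide libraries, so loss of SOX2 protein was not compared. The cornification genes without S100A2 summed to 414 and 423 TPM in DMSO and 423 and 412 TPM with ARV-771. IVL was at 0 and 0.06 TPM in DMSO and 0 and 0.05 TPM with ARV-771, and SPRR1A, SPRR2A, SPRR2E, S100A8 and S100A9 were at 0 TPM in all 4 libraries. The drug acted for hours and the guides for days of selection, so agent and time cannot be told apart.

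Of 16 members that passed the filter, 8 were called risen and 0 fallen with the usual scaling, where 21.2% of 13500 genes were risen and 31.7% fallen (52.9% called). With this scaling S100A2 had a log2 fold change of 1.08 ± 0.04 (adjusted p = 2.9e-16), CSTA 0.85 ± 0.06 (adjusted p = 1.3e-11) and CSTB 0.85 ± 0.06 (adjusted p = 4.1e-12), all by edgeR. These directions change with how the libraries are scaled. By library size alone the median gene moved by -0.50 on the log2 scale, and by mitochondrially encoded genes by -1.12. With mitochondrial scaling 0 members were risen and 5 fallen, and S100A2 (-0.01), CSTA (-0.23) and CSTB (-0.22) turned direction. In TPM, S100A2 was at 3875 and 3561 in DMSO and 4881 and 4824 with ARV-771, CSTA at 199 and 194 against 215 and 213, and EVPL at 20.7 and 20.7 against 12.6 and 11.04. The calls of CNFN, ECM1, KLK6 and SCEL were each lost without at least 1 library. Against the knockout, the response was lower in 20 members and higher in 1, S100A2, of 42 tested, where 29.7% of 14612 genes were called lower and 26.2% higher (55.9% in all). The call of S100A2 was lost with library size (0 higher, 20 lower) and with limma on log2(TPM + 1). CNFN, for example, differed by -5.77 ± 0.73 (adjusted p = 4.8e-06 by edgeR). SPRR1A, SPRR2A, SPRR2E, SPRR4, LCE3D, S100A8, S100A9 and S100A12 had no counts with ARV-771 or DMSO, and their differences could not be estimated. Of the members called lower, KLK5, KLK7, KLK11, CALML5 and ABCA12 stood over the count cutoff of the knockout comparison only in SOX2 guide libraries.

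In SKMES1, activation of e1 brought SOX2 RNA from 1.68 and 1.53 TPM to 224 and 316 TPM (log2 7.34 ± 0.26, adjusted p = 0.00449 by edgeR), and no member was called. Of 13 members that passed the filter, 0 were called by the quasi-likelihood test, the exact test of edgeR or DESeq2, where 0.188% of 14859 genes were called (0.168% risen, 0.0202% fallen). By the quasi-likelihood test 4 of the 13 members had an unadjusted p under 0.05, as did 2109 of the 14859 genes. The smallest adjusted p was 0.170, for TGM2 (log2 -0.40 ± 0.09 by edgeR). The control pair was uneven. The sg-NC#2 library held more of several members than sg-NC#1, with SLPI at 48.6 against 7.36 TPM, PI3 at 13.5 against 0.39 TPM, SCEL at 4.86 against 0.20 TPM and ECM1 at 199 against 85.9 TPM. It had 21 members over 1 TPM and the other control had 12. Without sg-NC#1, so with sg-NC#2 as the lone control, SLPI moved from a log2 fold change of -1.72 to -2.49. ECM1 moved from -0.84 to -1.30. Which members were called thus depended on single libraries, and fits with 1 library in a group were not read as a result about the members.

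Single SKMES1 libraries also stood out in single genes. SBSN was at 266 TPM with sg-e1#3, against 0.10 TPM with sg-e1#1 and 1.11 and 0.94 TPM in the controls. ALOXE3 was at 22.4 TPM and FLG at 4.45 TPM in the same library, against 3.84 and 0.37 TPM with sg-e1#1. These values were not shared by the 2 e1 guides and carry no call.

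SKMES1 controls were compared with the CRISPRi controls of KYSE140, so the cell line and the dCas9 fusion cannot be told apart. These control libraries are also those of the e1 comparisons. Of 20 tested members 4 were higher in SKMES1 and 7 lower, where 30.4% and 25.2% of 15100 genes were (55.6% called). The share of members called was thus near that of all genes, but it includes genes that had to differ. TGM2 and KLK10 stood over the cutoff of 0.899 CPM only in SKMES1, and TGM1, CSTA, CALML5 and ALOX12B only in KYSE140. Among the 14 members over it in both groups, 2 were higher and 3 lower, where 3101 and 3179 of 12860 genes of that kind were. The squamous markers summed to 665.98 to 1205.92 TPM in these SKMES1 libraries and 7152.12 to 7180.96 TPM in those of KYSE140, and the glandular markers to 15.23 to 36.11 TPM and 0.53 to 1.84 TPM. Their part in the result was not tested. Which members were called also depended on single libraries. SLPI, for example, had a log2 fold change of 2.35, and of 3.13 without sg-NC#1 of SKMES1. TGM2 was at 37.8 and 40.7 TPM in SKMES1 and had no counts in the KYSE140 controls, and ECM1 was at 85.9 and 199 TPM against 1.73 and 1.13 TPM (log2 6.70 ± 0.54, adjusted p = 2.1e-04 by edgeR). CSTA was the reverse, at 0.79 and 0.45 TPM against 188 and 178 TPM (log2 -8.29 ± 0.21, adjusted p = 1.2e-05 by edgeR). By level, TGM2 was the most abundant transglutaminase member in SKMES1 and TGM1 in KYSE140, with TGM1 at 1.03 and 0.97 TPM in SKMES1 against 6.32 and 12.95 TPM. CSTB (79.2 and 101 against 87.0 and 81.2 TPM), CNFN and PPL were not called. S100A2 was at 1101 and 1931 TPM against 4135 and 4009.95 TPM. SCEL had a log2 fold change of 0.36 that was not called and turned to -3.42 without sg-NC#2 of SKMES1 (adjusted p = 2.7e-04 by edgeR).

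**Figure D5:**
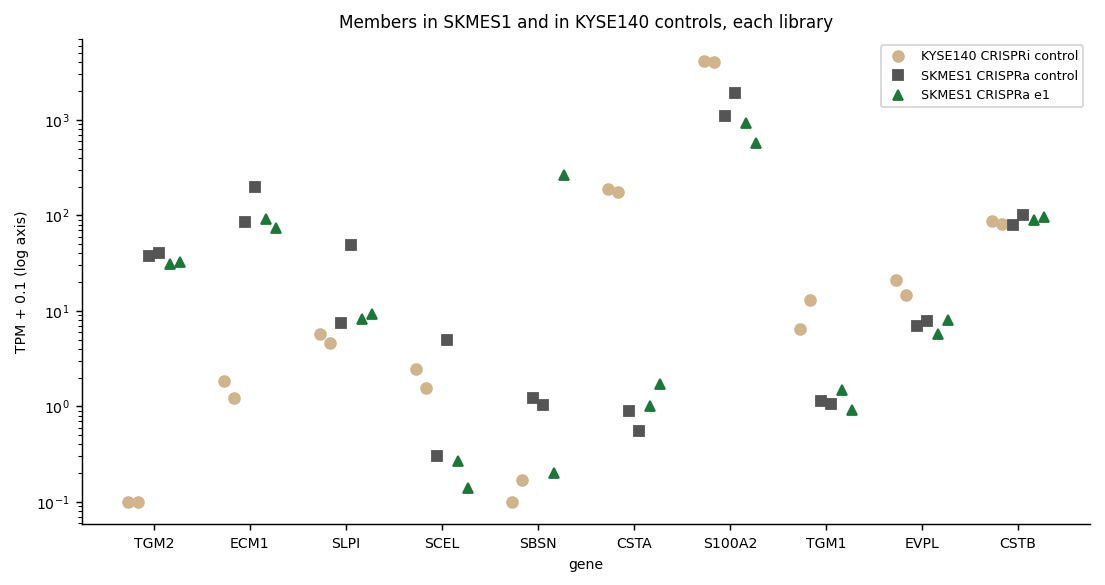
TPM + 0.1 (log axis) of 10 members in the KYSE140 CRISPRi control libraries (circles), the SKMES1 CRISPRa control libraries (squares) and the SKMES1 CRISPRa e1 libraries (triangles), 1 point per library. TGM2 and ECM1 are high in SKMES1, CSTA is high in KYSE140, and SBSN is high in 1 e1 library.

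Further genes of the same programme were read from a list of 62 other cornification genes. In the knockout 44 of them were tested and 36 were risen and 0 fallen, where 16.3% of all genes were risen. Among the 18 over the cutoff in both groups 11 were risen, where 13.6% of all genes of that kind were. LYPD3, a surface protein of suprabasal cells, had a log2 fold change of 5.53 ± 0.25, TMPRSS11E, a squamous serine protease, 4.85 ± 0.23 and SPINK5, the inhibitor of KLK5 and KLK7, 3.20 ± 0.19 (adjusted p at most 6.3e-08 by edgeR). Under e1 repression 12 of 24 tested were risen and 0 fallen, where 9.30% of all genes were risen, among them S100A16 at 1.22 ± 0.05 and LYPD3 at 2.36 ± 0.18. Of the 17 over the cutoff in both groups, 5 were risen and 12 were not called. With ARV-771 8 of 16 were risen and 3 fallen, where 21.2% of all genes were risen and 31.7% fallen, subject to the scaling above. Under e1 activation 0 of 17 were called, where 0.188% of all genes were, so this count was near that share. KLK9 has a pair of rows in the tables and was counted once.

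Of 16 transcription factors known for squamous differentiation, 13 were risen and 0 fallen in the knockout, where 16.3% of all genes were risen. ELF3, an epithelial ETS factor, had a log2 fold change of 4.54 ± 0.13, ZNF750, a terminal differentiation regulator, 4.51 ± 0.17, EHF 3.44 ± 0.15 and OVOL1 2.37 ± 0.13 (adjusted p at most 3.1e-08 by edgeR). Under e1 repression 7 of 15 tested rose and 5 fell, where 9.30% and 10.7% of all genes did. EHF had 3.54 ± 0.23 and CEBPB 0.97 ± 0.08, whereas GRHL3, a grainyhead factor of barrier formation, had -0.80 ± 0.11 and PRDM1 -1.04 ± 0.12. The direction of this group thus differed between genes in e1 repression. With ARV-771 0 of 14 tested rose and 12 fell, where 31.7% of all genes fell, among them KLF4, which acts in barrier formation (log2 -3.28 ± 0.15), and GRHL3 (log2 -3.32 ± 0.15), both with an adjusted p of at most 1.1e-15 by edgeR. KLF4 was at 22.04 and 24.2 TPM in DMSO and 1.81 and 2.53 TPM with ARV-771. In SKMES1 controls GRHL2 was at 0 TPM in both libraries, against 41.8 and 30.8 TPM in KYSE140.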

How the data were processed

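Poly-A RNA of 17 cell line libraries in 8 groups was sequenced from directional libraries. The authors used Bowtie2 for alignment to hg19 and RSEM for quantification over GENCODE genes, with versions and strand setting not given in the sources used here. The deposited tables hold an expected count per gene, in which RSEM divides a read that fits several genes, and the deposited TPM is scaled within each library. The FPKM column was not used. Counts of 13 members were not whole in at least 1 library.

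The members and gene lists were chosen with earlier results of these data known. Groups came from the labels. Rounded expected counts went into edgeR 4.0.16 (R 4.3.3), whose quasi-likelihood test was run with TMM scaling, filterByExpr (minimum count 10, minimum total 15) and the libraries of the groups compared. Adjusted p-values (Benjamini-Hochberg) cover all genes tested, and a call needed an adjusted p below 0.05 with a change of more than 1.5-fold. An SE is the absolute log2 value over the root of its F statistic. Interactions gave the differences between responses. Any member could be named, as could SOX2 and, from the other lists, per comparison up to 4 called genes per direction with the smallest p and groups that do not overlap. KRT5, KRT14 and the TPM of GRHL2 were named as checks after their values were seen. Ratios against groups with 3 or fewer counts used counts over TMM-scaled depth, with exact binomial intervals for counting error only. Total counts of 7260730 to 15781463 set the precision. Alternatives were the exact test, DESeq2 1.42.0, RLE factors, library size, no filter, other fold thresholds, limma 3.58.1 on log2(TPM + 1) where the mean TPM reached 1, all libraries in one fit, mitochondrial scaling, replicate blocks and the omission of single libraries. The fit was tested on simulated data. Gene positions came from GENCODE 44 on GRCh37 and promoter windows from RefSeq on GRCh38.p14.

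The block used guide numbers or culture letters, which no source ties to a shared batch.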

Additional observations from a re-analysis of the deposited data

How the results depend on the processing

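The number of members called held within 1.5 times of 23 in e1 repression and of 40 in SOX2 knockout under all alternatives run, with 21 to 24 and 37 to 40 when each library was left out. For ARV-771 the 8 calls became 4 with DESeq2, with library size (2 risen, 2 fallen), with a fold change over 2 and with all libraries in one fit, 3 with limma on log2(TPM + 1), 5 with mitochondrial scaling, all fallen, and 5 to 8 without a library. Directions turned with limma for CNFN (-0.09), EVPL (-0.76) and SCEL (-0.06). They turned with mitochondrial scaling for CNFN (-0.43), EVPL (-1.0), PPL (-0.84), SCEL (-0.39), CSTA (-0.23), CSTB (-0.22), S100A2 (-0.01) and S100A14 (-0.77). By construction these settings move the median gene, by -0.62 and -1.12. In e1 activation 0 calls became 12 without a filter, 6 with all libraries in one fit and 0 to 10 without a library. For the cell lines 11 became 19 without a filter, 20 in one fit and 8 to 19 without a library, and SCEL, at 0.36, ranged from -3.42 without sg-NC#2 of SKMES1 to 1.28 without sg-NC#1. The 16 members called between e1 repression and knockout became 25 without a filter, 36 with limma and 12 to 25 without a library, and the 21 between ARV-771 and knockout became 37 with limma and 16 to 26 without a library. The cause was not tested. In the knockout, risen genes were 54.7% of all calls with TMM, 36.2% with library size and 38.9% with limma.

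With a replicate block, 23 members were called in e1 repression, 8 in ARV-771 and 12 between the lines. Deviations of same-numbered libraries correlated at 0.01, -0.06 and 0.02 (11145, 10855 and 12069 genes), so the numbers gave no sign of pairing. FLG2, CRNN, MAL and CALML3 reached at most 0.88 TPM, where low expression and limited depth were not separated.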
